A study of Gossypium barbadense with 48 samples.

Results

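The genes described here are 150 genes of the cotton *Gossypium barbadense* whose RNA was most concentrated at 25 and 30 days post anthesis (DPA). The study places both days, and also 20 and 35 DPA, in the stage in which the secondary wall of the fiber thickens. By its ranges 20 DPA also falls in the stage of elongation. The genes were chosen from the mean FPKM (fragments scaled to gene length and library size) of each cultivar and day. A gene qualified if its highest day was 25 or 30 DPA in both cultivars and if that mean reached 10 FPKM in both. Of 69337 genes, 1162 qualified, out of 2689 that met the conditions in PimaS-7 and 1908 that met them in 5917. They were ranked by a score, the mean log2(FPKM + 1) of 25 and 30 DPA minus the mean of the other 6 days, averaged over the cultivars, and the 150 highest were taken. The high level at 25 and 30 DPA and the lower mean level of the other days are therefore a result of the choice and are given only as a description. What the choice did not use is how the cultivars differed on a day, how 20 DPA differed from 15 DPA, and how 30 DPA differed from 25 DPA, and these were tested. The minimum of 10 FPKM at the peak in both cultivars does limit how far they could differ at 25 and 30 DPA. No such minimum held on the other days.

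PimaS-7 is an American cultivar and 5917 a Chinese cultivar of the same species, and they are the parents of the inbred population of the study. Neither carried a transgene or received a treatment by the labels. Fibers were taken at intervals of 5 days up to 35 DPA. The 0 DPA samples carry the same tissue label, although by the methods of the study they were ovules. Each cultivar and day had 3 libraries, which gave 48 libraries in all. The study calls the 3 libraries biological replicates. Whether each came from plants of its own is not stated, and the p-values measure the spread between these samples.

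A cotton fiber is a single cell of the seed coat epidermis that first elongates and then deposits almost pure cellulose on the inside of its wall. In the elongating fiber, cortical microtubules lie across the cell. As the secondary wall begins they turn towards a steep helix, and cellulose synthase complexes move along them, so that the cellulose follows their course. In Arabidopsis, MYB and NAC transcription factors switch on the genes of the secondary wall, among them those for cellulose, xylan and lignin.

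Names were held for 4 of the 150 genes, all on chromosomes D08 and D11 of the HAU v2.0 genome. They are TUBB1 (Gbar_D08G020540, D08 from 57694676 to 57697588), a beta-tubulin, which is a subunit of microtubules; WDL2 (Gbar_D11G032910, D11 from 64907056 to 64910444), a WVD2-like protein of the family that binds and bundles microtubules in Arabidopsis; MYB86 (Gbar_D08G013290, D08 from 41848635 to 41850759), a MYB transcription factor; and GLP10 (Gbar_D08G014260, D08 from 44775825 to 44776891), a germin-like protein, of a family of secreted proteins of the cell wall space. The other 146 genes are given by their identifiers alone. The RT-qPCR primers that the study designed for TUBB1 and WDL2 are shown because they mark the stretches of the 2 transcripts that the study also chose to measure by a second method.
TUBB1 forward primer: tcccggggttcacaacaata
TUBB1 reverse primer: ccttggtgctcattttgcct
WDL2 forward primer: aagagcaacaagcagccatt
WDL2 reverse primer: acatcaccgcagctctttct
Each primer has 20 bases, printed 5′ to 3′, with no part marked in capitals. The beta-tubulins of cotton are close in sequence, and most genes have an A and a D copy. How reads shared by such genes were assigned is not given in the sources used here, so the level of TUBB1 in particular is uncertain.

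Total counts per library ranged from 28222056 to 43390702, with a median of 32756789, and none of the libraries duplicated another. The label of fiber was checked against 3 seed and embryo genes, whose summed FPKM was at most 0.306 in any library of 25, 30 or 35 DPA. Before that, these genes summed to 3.51 to 3.56 FPKM in PimaS-7 and 3.35 to 3.76 FPKM in 5917 at 15 DPA, and to 1.07 to 1.42 FPKM in PimaS-7 and 3.25 to 3.94 FPKM in 5917 at 20 DPA. In the ovules of 0 DPA they summed to only 1.11 to 1.92 FPKM in PimaS-7 and 1.98 to 2.515 FPKM in 5917. The sum was thus lower in ovules than in the samples of 15 DPA, so it cannot tell fiber from ovule and does not test the label. The 1 of the 3 that passed the filter on low counts was called lower in PimaS-7 at 20 DPA (log2 fold change -1.70) and at 20 over 15 DPA in PimaS-7 (-1.49), and its step differed between the cultivars (-1.48), so that it moved against most members. The 9 cell cycle and histone genes summed to 26.9 to 31.3 FPKM in PimaS-7 and 36.98 to 56.9 FPKM in 5917 at 25 DPA, without overlap, and 2 of 8 tested were called lower in PimaS-7. At 30 DPA they summed to 32.1 to 33.2 FPKM in PimaS-7 and 25.2 to 33.5 FPKM in 5917, and at 35 DPA to 35.4 to 48.2 FPKM in PimaS-7 and 27.7 to 38.6 FPKM in 5917. Photosynthesis genes were lower in sum in PimaS-7 on the late days, with 1 of 2 tested called lower at 30 and at 35 DPA and 0 at 25 DPA. The 4 of them summed to 5.79 to 15.4 FPKM in PimaS-7 and 19.4 to 39.9 FPKM in 5917 at 25 DPA, to 14.2 to 18.1 FPKM in PimaS-7 and 23.5 to 42.2 FPKM in 5917 at 30 DPA, and to 1.60 to 8.63 FPKM in PimaS-7 and 18.5 to 24.01 FPKM in 5917 at 35 DPA. Nearly all of this came from a single gene, PSBW, and the other 3 were below 1 FPKM. At 20 DPA they summed to 2.69 to 4.37 FPKM in PimaS-7 and 2.19 to 3.07 FPKM in 5917, and 1 of 2 tested was called higher at 20 over 15 DPA in PimaS-7. The part of these markers in the results below was not tested.

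Over the 8 days the 150 genes were close to silent, then abundant, then partly gone. Their median mean level in PimaS-7 was 0.135, 0.0890, 0.140, 0.257 and 2.53 FPKM at 0, 5, 10, 15 and 20 DPA, and 71.9, 67.2 and 19.3 FPKM at 25, 30 and 35 DPA. In 5917 it was 0.137, 0.0860, 0.0770, 0.891 and 0.507 FPKM at 0, 5, 10, 15 and 20 DPA, and 108, 101 and 72.5 FPKM at 25, 30 and 35 DPA. The share of all counts that fell on these genes was 0.868% at 20 DPA and 5.78%, 5.27% and 1.64% at 25, 30 and 35 DPA in PimaS-7. In 5917 it was 0.939% at 15 DPA, 0.649% at 20 DPA, and 7.10%, 7.78% and 5.80% at 25, 30 and 35 DPA. The peak was thus preceded in 5917 by a small level at 15 DPA that was not higher at 20 DPA, and was followed by a high level at 35 DPA. In PimaS-7 the low levels before the peak came at 20 DPA instead, and little was left at 35 DPA.

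**Figure D1:**
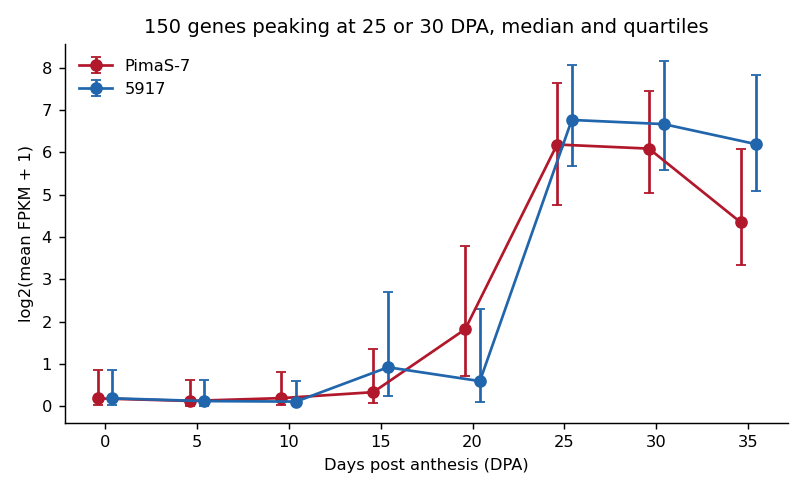
Median and quartiles of the mean FPKM of the 150 genes, as log2(mean FPKM + 1), in PimaS-7 and 5917 at each day post anthesis. Both cultivars stand near 0 up to 10 DPA and reach medians of 71.9 FPKM in PimaS-7 and 108 FPKM in 5917 at 25 DPA, and at 35 DPA the medians are 19.3 FPKM in PimaS-7 and 72.5 FPKM in 5917.

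The peak means themselves spanned a wide range, 10.6 to 2994 FPKM in PimaS-7 (median 93.1) and 19.8 to 3251 FPKM in 5917 (median 115). In PimaS-7, 80 genes peaked below 100 FPKM, 62 from 100 to 1000 and 8 at 1000 or more, and in 5917 the numbers were 63, 78 and 9. Of the 100 genes with the highest mean FPKM, the set held 1, 16, 17 and 5 at 20, 25, 30 and 35 DPA in PimaS-7, and 2, 17, 18 and 14 in 5917. Before the peak, 102 genes were below 1 FPKM in every group from 0 to 10 DPA, and 6 of them had no read in any of the 18 libraries of those days. The peak mean lay at 25 DPA in both cultivars for 53 genes, at 30 DPA in both for 46, at 25 DPA in PimaS-7 and 30 DPA in 5917 for 23, and the reverse for 28. The genes lay on all 26 chromosomes, 87 of them (58.0%) on the A subgenome, 62 on D and 1 in a newly assembled locus. Among the 1162 qualifying genes 49.3% lay on A. The median gene length was 1767.5 bases, against 2045.5 bases for the qualifying genes.

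The highest scores belonged to Gbar_A07G012370 (8.55) and Gbar_A03G019580 (7.75), which have no name here. Gbar_A07G012370 had 193, 777 and 301 FPKM at 25 DPA and 1220, 1179 and 1110 FPKM at 30 DPA in PimaS-7, against 1380, 2165 and 1338 FPKM and 2251, 1529 and 1965 FPKM in 5917. Its mean was at most 0.0383 FPKM in any group from 0 to 10 DPA. At the other end, Gbar_A11G005840 (3.4123) and Gbar_D06G008700 (3.4105) were the last to enter and Gbar_A13G021820 (3.4096) and Gbar_A11G032900 (3.3903) the nearest left out. The set therefore has no natural edge at 150.

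TUBB1 was the most abundant of the named genes. In PimaS-7 it had 55.0, 53.4 and 65.4 FPKM at 15 DPA, 308, 307 and 235 at 20 DPA, 939, 1737 and 1099 at 25 DPA, 843, 767 and 666 at 30 DPA, and 30.0, 54.8 and 23.7 at 35 DPA. In 5917 it had 253, 233 and 226 FPKM at 15 DPA, 166, 153 and 164 at 20 DPA, 1163, 1898 and 1239 at 25 DPA, 1944, 1160 and 1583 at 30 DPA, and 883, 566 and 468 at 35 DPA. Of these 5 days the cultivars overlapped at 25 DPA only, and the PimaS-7 libraries lay above those of 5917 at 20 DPA and below them at 15, 30 and 35 DPA. The log2 fold change of PimaS-7 over 5917 was -2.25 (SE 0.11, edgeR adjusted p = 3.25e-05) at 15 DPA and -4.64 (SE 0.53, adjusted p = 0.00373) at 35 DPA. At 20 over 15 DPA in PimaS-7 TUBB1 rose by 2.31 (SE 0.16, edgeR adjusted p = 0.000732), and its step exceeded that of 5917 by 2.94 (SE 0.19, adjusted p = 7.33e-06). Leaving out any 1 library kept these 4 calls. At 30 over 25 DPA in PimaS-7 it fell by 1.12 (SE 0.30, edgeR adjusted p = 0.0316), a call that was lost without PimaS-7 25 DPA replicate 2 or 3 or without 30 DPA replicate 2 or 3. Without 25 DPA replicate 2 the log2 fold change was -0.76 (edgeR adjusted p = 0.0391), short of the fold threshold, and without the other 3 it was -1.04 to -1.25 (adjusted p 0.055 to 0.108).

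WDL2 was as high in one cultivar as in the other at its peak and differed before and after it. PimaS-7 had 24.3, 30.4 and 15.6 FPKM at 20 DPA, against 1.09, 1.61 and 1.58 FPKM in 5917. At 25 DPA PimaS-7 had 169, 238 and 196 FPKM and 5917 had 156, 273 and 174 FPKM. At 35 DPA PimaS-7 had 36.8, 47.8 and 14.5 FPKM, against 130, 137 and 108 FPKM in 5917. The groups overlapped at 25 DPA only of these 3 days. The log2 fold change of PimaS-7 over 5917 was 3.87 at 20 DPA (SE 0.28, edgeR adjusted p = 0.000235) and -2.42 at 35 DPA (SE 0.48, adjusted p = 0.0144). The call at 20 DPA held without any 1 library, and that at 35 DPA was lost without 5917 replicate 2 or PimaS-7 replicate 1 (adjusted p 0.0524 and 0.062). At 15 DPA both cultivars were low, with 2.74, 3.49 and 2.83 FPKM in PimaS-7 and 3.77, 2.29 and 2.43 FPKM in 5917. From there PimaS-7 rose by 2.96 on the log2 scale at 20 DPA (SE 0.26, edgeR adjusted p = 0.00134), and the step exceeded that of 5917 by 4.004 (SE 0.37, adjusted p = 4.99e-05). WDL2 also had 129, 109 and 106 FPKM at 30 DPA in PimaS-7, a fall of 1.20 against 25 DPA (SE 0.20, edgeR adjusted p = 0.00837), where 5917 had 225, 163 and 219 FPKM. The call of PimaS-7 over 5917 at 30 DPA (log2 fold change -1.29, SE 0.30, edgeR adjusted p = 0.0412) was lost without each of 5 of the 6 libraries, all but 5917 replicate 2 (adjusted p 0.0684 to 0.182). A further 2 genes of the same name, Gbar_D08G023850 and Gbar_D11G027420, were not members and did not share its lower late level in PimaS-7. Gbar_D11G027420 had 11.9 ± 3.2 FPKM in PimaS-7 and 1.85 ± 0.59 FPKM in 5917 at 30 DPA (SD, n = 3). At 35 DPA it had 10.1 ± 1.4 and 3.11 ± 0.38 FPKM. Gbar_D08G023850 had 2.89 ± 0.79 FPKM in PimaS-7 and 1.99 ± 0.50 FPKM in 5917 at 35 DPA.

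MYB86 was read in 5917 at 15 DPA and practically not in PimaS-7. PimaS-7 had 0, 0 and 0.0278 FPKM, which were 3 reads over the group, against 20.9, 18.5 and 16.7 FPKM or 3461 reads in 5917. The ratio of 5917 over PimaS-7 was 1210, with a 95% interval of 415 to 5890 that covers counting error only (edgeR adjusted p = 1.63e-05). At 20 DPA PimaS-7 had 19.4, 16.3 and 7.69 FPKM and 5917 had 5.09, 6.0 and 8.05 FPKM, and these groups overlapped. The ratio of 20 over 15 DPA in PimaS-7 was 934 (interval 319 to 4530, edgeR adjusted p = 0.000732), and in 5917 MYB86 fell by 1.59 on the log2 scale (SE 0.18, adjusted p = 0.0147). The fall in 5917 was lost without 5917 15 DPA replicate 1 or 20 DPA replicate 1 (adjusted p 0.0643 and 0.0691). MYB86 was among the 3 members that were called higher in PimaS-7 at 25 DPA, with 146, 192 and 162 FPKM against 39.04, 73.5 and 55.9 FPKM in 5917 (log2 fold change 1.65, SE 0.37, edgeR adjusted p = 0.0397). That call was lost without each of 5 of the 6 libraries, all but 5917 replicate 2 (adjusted p 0.103 to 0.143). At 30 DPA the levels were close, 59.9, 66.0 and 62.9 FPKM in PimaS-7 and 76.6, 66.2 and 77.4 FPKM in 5917. The fall from its PimaS-7 peak, 30 over 25 DPA, was 1.79 on the log2 scale (SE 0.17, edgeR adjusted p = 0.00209) and was kept without any 1 library. In 5917 MYB86 stayed high at 35 DPA with 80.6, 76.2 and 58.9 FPKM, and PimaS-7 had 38.6, 35.99 and 11.2 FPKM (log2 fold change -1.85, SE 0.48, edgeR adjusted p = 0.0315). The last call was lost without any 5917 library or PimaS-7 replicate 1 (adjusted p 0.0673 to 0.0949).

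GLP10 had a narrower pattern than the other 3 and was near 0 in both cultivars at 15 and 20 DPA, with means of at most 0.336 FPKM. At 25 DPA it had 18.4, 8.53 and 23.98 FPKM in PimaS-7, against 65.5, 60.7 and 81.9 FPKM in 5917. At 30 DPA it had 26.9, 32.9 and 41.8 FPKM in PimaS-7, against 16.5, 92.1 and 18.3 FPKM in 5917, so that 1 library of 5917 carried most of the group mean. At 35 DPA it had 3.45, 3.74 and 2.76 FPKM in PimaS-7, against 7.21, 11.01 and 9.76 FPKM in 5917. The cultivars did not overlap at 25 and 35 DPA. The log2 fold change of PimaS-7 over 5917 was -1.91 at 25 DPA (SE 0.34, edgeR adjusted p = 0.0197) and -2.03 at 35 DPA (SE 0.29, adjusted p = 0.00683). The call at 25 DPA was lost without 5917 replicate 3 or PimaS-7 replicate 1 (adjusted p 0.0657 and 0.075), and the call at 35 DPA held without any 1 library.

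**Figure D2:**
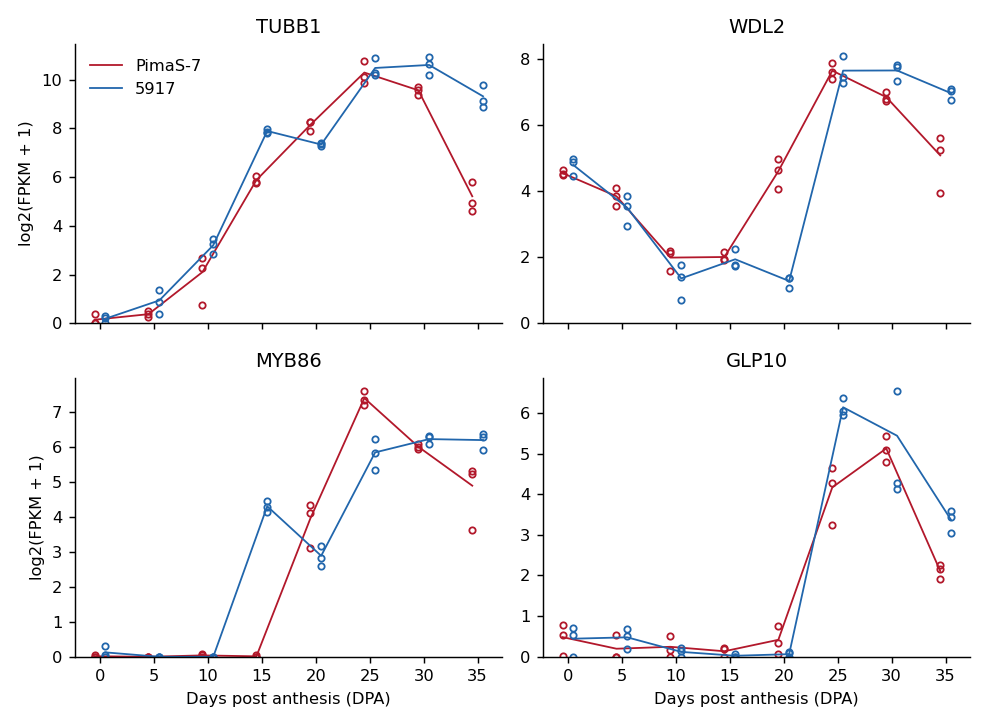
FPKM of TUBB1, WDL2, MYB86 and GLP10, as log2(FPKM + 1), against days post anthesis in PimaS-7 and 5917; points are libraries (3 per cultivar and day) and lines join the means. At 15 DPA MYB86 has 0, 0 and 0.0278 FPKM in PimaS-7 and 16.7 to 20.9 FPKM in 5917, and at 35 DPA the PimaS-7 libraries of all 4 genes lie below those of 5917.

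Between the cultivars, the whole set was first compared at 15 DPA, when most of its genes were still low. Calls needed an edgeR adjusted p no greater than 0.05 together with a log2 fold change of 1 or more in either direction. Of the 150, 112 passed the filter on low counts. Of these, 67 were lower in PimaS-7 and 2 higher, where 4.4% of all genes tested were lower and 8.21% higher. A member that passed the filter only through the cultivar in which it was high had to differ, so these counts describe the 112 genes and not the 150. Their median log2 fold change was -2.31, against 0.04 over all genes tested. The library medians over the 150 genes were 0.140, 0.293 and 0.332 FPKM in PimaS-7, against 0.968, 0.770 and 0.856 FPKM in 5917, without overlap. In bulk RNA, a smaller share of cells that had reached the stage and less RNA per cell cannot be told apart.

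Besides MYB86, Gbar_A06G001630 was named for its difference at 15 DPA. It had 0.0715, 0.325 and 0.388 FPKM in PimaS-7, against 57.1, 54.1 and 53.8 FPKM in 5917 (log2 fold change -7.83, SE 0.40, edgeR adjusted p = 4.24e-05). At 25 DPA it had 146, 106 and 145 FPKM in PimaS-7 and 104, 122 and 77.7 FPKM in 5917, so the groups overlapped at the peak. The 2 members higher in PimaS-7 at 15 DPA were Gbar_D07G004360 (3.01 ± 0.54 FPKM against 0.286 ± 0.124 FPKM in 5917, SD, n = 3) and Gbar_A05G022570 (0.701 ± 0.032 against 0.278 ± 0.088 FPKM), named after their values were seen. Both were low.

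At 20 DPA the direction was the opposite. Of 116 members that passed the filter, 64 were higher in PimaS-7 and 1 lower, where 6.33% of all genes tested were higher and 2.58% lower. The median log2 fold change was 1.75, against 0.03 over all genes, and again members that passed only through the cultivar in which they were high had to differ. The library medians were 3.99, 2.75 and 0.919 FPKM in PimaS-7, against 0.453, 0.482 and 0.458 FPKM in 5917. PimaS-7 replicate 3 stood apart from the other PimaS-7 libraries of 20 DPA, with 74 members at 1 FPKM or more against 113 and 99. Without it 80 members were called, and without 5917 replicate 1, 5917 replicate 3 or PimaS-7 replicate 1 the count was 39, 41 or 43. The 1 lower member was Gbar_D10G022920 (0.638 ± 0.102 FPKM in PimaS-7 against 3.95 ± 0.76 FPKM in 5917), named after its values were seen.

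With WDL2, Gbar_D06G011440 had the largest differences of 20 DPA among the members that the naming rule admits. It had 24.6, 17.8 and 7.58 FPKM in PimaS-7, against 1.40, 0.925 and 1.72 FPKM in 5917 (log2 fold change 3.49, SE 0.43, edgeR adjusted p = 0.00237). At 15 DPA the same gene had 0.235, 0.587 and 0.467 FPKM in PimaS-7, against 4.66, 4.08 and 3.68 FPKM in 5917 (-3.46, SE 0.29, edgeR adjusted p = 0.000225). The cultivar that was lower at 15 DPA was thus the higher one at 20 DPA. Of the 67 members that were lower in PimaS-7 at 15 DPA, 35 (52.2%) were called higher in PimaS-7 at 20 DPA, as were 139 of all 2010 genes that were lower at 15 DPA (6.92%). The share among the 67 was near that of all members tested at 20 DPA, 64 of 116 (55.2%). By the first fiber day with a mean of at least 1 FPKM, 55 genes reached that level in PimaS-7 at 20 DPA and 14 at 15 DPA, and in 5917 3 did at 20 DPA and 41 at 15 DPA. Of the 150, 26 reached it at 20 DPA in PimaS-7 and at 15 DPA in 5917, and another 27 at 20 DPA in PimaS-7 and only at 25 DPA in 5917.

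**Figure D3:**
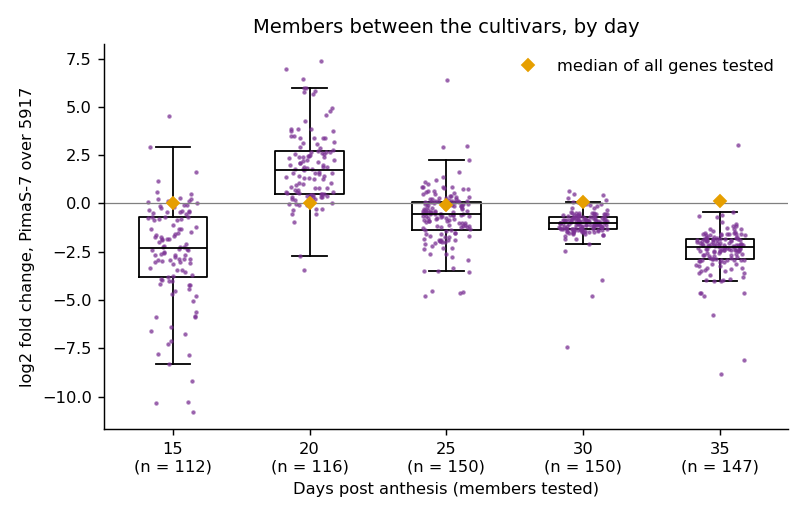
Log2 fold change of PimaS-7 over 5917 for each member that passed the filter on low counts at 15, 20, 25, 30 and 35 DPA, with the median of all genes tested as a diamond. The medians of the members are -2.31, 1.75, -0.53, -1.01 and -2.25, and the diamonds lie between -0.06 and 0.14.

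The step between 15 and 20 DPA was then tested within each cultivar. In PimaS-7, 83 of the 115 members that passed the filter were higher at 20 than at 15 DPA, where 2.94% of all genes tested were higher and 2.7% lower. No member was called lower, and DESeq2 and limma called none lower either, while 3 were lower at an unadjusted edgeR p under 0.05. The median log2 fold change was 3.17, against 0.01 over all genes. Members that passed only through 20 DPA had to differ, and 6 of the 115 had no read in one of the groups, so the count describes the tested genes alone. In 5917, 16 of the 111 members that passed were lower at 20 than at 15 DPA, where 0.21% of all genes tested were lower and 0.164% higher. No member was called higher in 5917, with 1 at an unadjusted edgeR p under 0.05, 1 called by DESeq2 and 0 by limma. The median in 5917 was -0.82, and 98 of the 111 fitted values lay below 0. The 5917 count was small and unsteady. It was 3, 8 or 8 without 15 DPA replicate 1, 2 or 3, and 5 or 9 without 20 DPA replicate 1 or 3.

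Gbar_A10G001660 shows the step in single libraries. In PimaS-7 it had 32.5, 25.0 and 21.6 FPKM at 20 DPA, against 0.529, 1.92 and 2.87 FPKM at 15 DPA. In 5917 it had 2.41, 4.66 and 4.04 FPKM at 20 DPA, against 13.8, 13.2 and 12.96 FPKM at 15 DPA. The groups did not overlap in either cultivar, and they moved in opposite directions. The log2 fold change of 20 over 15 DPA was 3.79 in PimaS-7 (SE 0.47, edgeR adjusted p = 0.00347) and -1.89 in 5917 (SE 0.20, adjusted p = 0.0136). The call in 5917 was lost without 5917 15 DPA replicate 1 (adjusted p = 0.0691). Gbar_D01G005090 moved in the same way, with 56.6, 47.1 and 19.1 FPKM at 20 DPA against 0.0694, 0.447 and 0.615 FPKM at 15 DPA in PimaS-7, and 10.5, 7.78 and 12.8 FPKM at 20 DPA against 44.4, 35.98 and 34.8 FPKM at 15 DPA in 5917.

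The difference between the cultivars in this step was itself tested as an interaction. It was called for 92 of the 126 members that passed the filter, in each case with the greater log2 fold change in PimaS-7, where 3.42% of all genes tested were called in that direction and 3.35% in the other. No member was called in the other direction, against 4 at an unadjusted edgeR p under 0.05, 1 by DESeq2 and 0 by limma. The median difference was 4.04 log2 units, against 0.01 over all genes. Members that passed the filter only through the group in which they were high had to differ here too. By the sign of the fitted values, 80 of the 92 were above 0 in PimaS-7 and below 0 in 5917, 2 were above 0 in both, and 10 could not be fitted in one cultivar alone. Of the 80, 74 were called higher within PimaS-7 and 16 called lower within 5917. Gbar_D01G005090 had a difference of 8.58 (SE 0.66, edgeR adjusted p = 1.97e-05), and leaving out 1 library at a time gave 79 to 102 called members. The counts of this step and those between the cultivars at 15 and 20 DPA come from the same libraries and are not separate evidence.

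**Figure D4:**
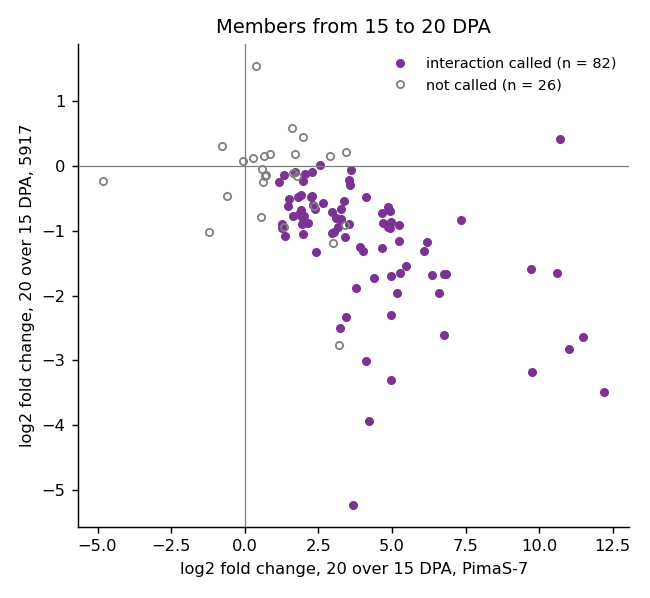
Log2 fold change of 20 over 15 DPA in PimaS-7 (horizontal axis) and in 5917 (vertical axis) for the 108 members fitted in both cultivars; filled points are the 82 whose difference between cultivars was called and open points the other 26. Of the 108, 92 lie above 0 in PimaS-7 and below 0 in 5917.

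At the peak itself the cultivars were closer. At 25 DPA all 150 genes passed the filter, and 31 were lower and 3 higher in PimaS-7, where 4.02% of all genes tested were lower and 2.89% higher. The median log2 fold change was -0.53, against -0.06 over all genes. The library medians were 57.3, 79.9 and 73.0 FPKM in PimaS-7, against 98.3, 127 and 88.4 FPKM in 5917. The 3 members that were higher in PimaS-7 were MYB86, Gbar_A03G003150 and Gbar_D03G015340. Gbar_A03G003150 had 896, 418 and 782 FPKM in PimaS-7, against 119, 96.0 and 63.8 FPKM in 5917 (log2 fold change 3.002, SE 0.43, edgeR adjusted p = 0.0098). It was called without any 1 library, whereas Gbar_D03G015340 (2.25, SE 0.41, edgeR adjusted p = 0.0204) was not called without replicate 1 or 3 of either cultivar (adjusted p 0.0577 to 0.0775). The count of 34 was 21 without 5917 replicate 1, 21 without 5917 replicate 3, 13 without PimaS-7 replicate 1 and 10 without PimaS-7 replicate 3, and DESeq2 called 52.

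Among the genes that were lower in PimaS-7 at 25 DPA, Gbar_A06G020540 was close to silent there. It had 0.645, 4.51 and 1.41 FPKM in PimaS-7, against 50.2, 92.3 and 54.4 FPKM in 5917 (log2 fold change -4.81, SE 0.79, edgeR adjusted p = 0.0148), and the call was lost without PimaS-7 replicate 3 (adjusted p = 0.0659). By 30 DPA it had 85.8, 77.2 and 57.8 FPKM in PimaS-7, against 147, 89.4 and 116 FPKM in 5917. The groups did not overlap on either day, and the gap was much smaller on the later one.

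At 30 DPA, 36 of the 150 genes were lower in PimaS-7, where 2.47% of all genes tested were lower and 5.35% higher. No member was called higher by edgeR, DESeq2 or limma, and 1 was higher at an unadjusted edgeR p under 0.05. The shift was general and modest: 142 of 150 fitted values lay below 0, with a median log2 fold change of -1.01 against 0.08 over all genes. The library medians were 72.0, 65.4 and 64.0 FPKM in PimaS-7, against 104, 91.6 and 98.1 FPKM in 5917, without overlap. The count of calls moved with single libraries. It was 16, 5 or 13 without PimaS-7 replicate 1, 2 or 3, and 13, 80 or 7 without 5917 replicate 1, 2 or 3, while the median stayed between -1.16 and -0.76. DESeq2 called 73 members and limma 14.

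Gbar_A06G004220 was far lower in PimaS-7 on every day from 25 DPA. In PimaS-7 it had 3.15, 2.88 and 5.12 FPKM at 25 DPA, 4.59, 10.1 and 17.1 FPKM at 30 DPA and 0.376, 0.718 and 0.491 FPKM at 35 DPA. In 5917 it had 47.96, 144 and 90.3 FPKM at 25 DPA, 255, 192 and 168 FPKM at 30 DPA and 235, 132 and 152.2 FPKM at 35 DPA. No library of one cultivar reached a library of the other on these days. The log2 fold change of PimaS-7 over 5917 was -4.62 (SE 0.56, edgeR adjusted p = 0.00566) at 25 DPA, -4.79 (SE 0.54, adjusted p = 0.00334) at 30 DPA and -8.83 (SE 0.48, adjusted p = 0.000744) at 35 DPA, and all 3 calls held without any 1 library. Gbar_A01G000170 was the other gene named for 30 DPA, with 1.22, 1.53 and 2.93 FPKM in PimaS-7 against 25.3, 16.6 and 22.3 FPKM in 5917 (-3.98, SE 0.42, edgeR adjusted p = 0.00276).

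Within the peak, the later day was set against the earlier one. In PimaS-7, 24 of 150 members were higher and 34 lower at 30 than at 25 DPA, where 11.1% of all genes tested were higher and 7.14% lower. The median log2 fold change was -0.43, against 0.15 over all genes. On the scale of log2(FPKM + 1) limma called 35 higher and 20 lower, with a median of -0.01, so the balance of the 2 directions depended on the scale and the test. Without PimaS-7 25 DPA replicate 2 edgeR called 33 higher and 29 lower, and without PimaS-7 30 DPA replicate 2 it called 36 in all. In 5917 no member was called in either direction by edgeR, where 0.011% of all genes tested were higher and 0.0285% lower. At an unadjusted p under 0.05 there were 5 higher and 8 lower, DESeq2 called 3 lower and limma 1 lower. Without 5917 25 DPA replicate 3 edgeR called 1. The 5917 libraries of these days spread more, with a median SD on the log2 scale for other genes of 0.316 at 25 DPA and 0.282 at 30 DPA. In PimaS-7 these values were 0.179 and 0.201. The lack of calls in 5917 therefore does not show that its levels were equal on the 2 days.

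The 24 genes that were called higher at 30 than at 25 DPA in PimaS-7 are described here by their levels, which that call selected. The difference between the cultivars in this step was itself called for 8 of the 24, where 4.43% of all genes tested were called in that direction. That test shares the libraries of the call that picked the 24. Their median means in PimaS-7 were 0.314, 13.9, 72.6 and 24.1 FPKM at 20, 25, 30 and 35 DPA, and in 5917 0.0820, 99.4, 105 and 86.2 FPKM. Gbar_D07G012770 was of this kind. It had 429, 317 and 203 FPKM at 30 DPA, against 12.1, 40.7 and 20.0 FPKM at 25 DPA in PimaS-7 (log2 fold change 3.31, SE 0.55, edgeR adjusted p = 0.00784), while 5917 had 1170, 812 and 910 FPKM at 30 DPA and 406, 926 and 530 FPKM at 25 DPA. The difference between these steps, 2.48 log2 units (SE 0.79), did not pass the test (edgeR adjusted p = 0.068). Of the 24, 22 were also called lower than 5917 at 25 DPA, a comparison that uses the same PimaS-7 libraries of 25 DPA. Among all 150 members 31 were lower there, as were 4.02% of all genes tested. Because the 24 were picked for a lower level in these libraries, the 22 are not separate evidence.

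Of the 34 genes that were lower at 30 than at 25 DPA, 30 could be tested at 20 over 15 DPA in PimaS-7, and 25 of these were called higher. Of the 24 above, 11 could be tested there and 4 were called higher. In the same comparison 83 of the 115 members tested were called higher, and 2.94% of all genes tested. Members that passed the filter only through 20 DPA had to differ, so these counts describe the tested genes alone. Whether the 2 classes differed in this was not tested. The 34 genes had median means in PimaS-7 of 7.004, 187, 62.1 and 23.2 FPKM at 20, 25, 30 and 35 DPA, and in 5917 of 1.62, 114, 83.8 and 72.5 FPKM. Gbar_D03G015340 had 32.7, 49.0 and 68.8 FPKM at 30 DPA, against 671, 313 and 621 FPKM at 25 DPA in PimaS-7 (log2 fold change -3.79, SE 0.37, edgeR adjusted p = 0.00222). Gbar_D05G013430 had 1.09, 3.13 and 5.00 FPKM, against 36.2, 65.4 and 41.3 FPKM (-4.36, SE 0.56, edgeR adjusted p = 0.00393). Both calls held without any 1 library. Between the cultivars, of the 34 genes, 23 of the 31 tested at 15 DPA were lower in PimaS-7 and 13 of the 30 tested at 20 DPA higher. Among all members, 67 of 112 tested were lower at 15 DPA and 64 of 116 higher at 20 DPA. Among all genes tested these shares were 4.4% and 6.33%.

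The difference between the cultivars in the step between 25 and 30 DPA was called for 19 of 150 members. The log2 fold change was greater in PimaS-7 for 8 and smaller for 11, where 4.43% and 3.57% of all genes tested were called in these directions. The shares of the members, 5.33% and 7.33%, were thus not far from those of all genes. The count moved between 3 and 52 as single libraries were left out: it was 11, 52 or 8 without 5917 25 DPA replicate 1, 2 or 3, 6, 32 or 5 without 5917 30 DPA replicate 1, 2 or 3, 8, 9 or 8 without PimaS-7 25 DPA replicate 1, 2 or 3, and 9, 3 or 6 without PimaS-7 30 DPA replicate 1, 2 or 3. DESeq2 called 11 in the positive and 25 in the negative direction, and limma 25 and 11.

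At 35 DPA the difference between the cultivars was the broadest of the 5 days. Of 147 members that passed the filter, 133 were lower in PimaS-7 and 1 higher, where 9.89% of all genes tested were lower and 8.32% higher. The median log2 fold change was -2.25, against 0.14 over all genes, and 146 of 147 fitted values lay below 0. The libraries of the cultivars did not overlap for 136 members (92.5%), where they did not for 55.3% of all genes tested. The library medians were 20.9, 25.3 and 12.7 FPKM in PimaS-7, against 76.2, 72.8 and 63.1 FPKM in 5917. The PimaS-7 libraries also spread more than usual, with a median SD on the log2 scale of 0.59 for members against 0.26 for other genes. Without PimaS-7 replicate 1 edgeR called 73 members, and with another library left out 90 to 141.

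Relative to its own peak, a member kept a median of 22.2% of its mean FPKM at 35 DPA in PimaS-7 and 68.3% in 5917. The level was below 50% of the peak for 140 genes in PimaS-7 and for 41 in 5917. The 24 genes that were higher at 30 than at 25 DPA in PimaS-7 kept a median of 32.8%, against 83.2% in 5917. The genes that were lower at 30 than at 25 DPA kept 13.5%, against 57.0% in 5917, and the other 92 kept 24.1%, against 69.6% in 5917. The peak was chosen from 25 and 30 DPA, so that each of these percentages had to lie below 100 in both cultivars, and only their difference between the cultivars was open. Of the 147 members tested at 35 DPA, 77 (52.4%) were called between the cultivars at 35 DPA and at neither 25 nor 30 DPA, against 12.6% of all genes tested at 35 DPA. A member without a call at 25 or 30 DPA may still have differed there. The choice also required each cultivar to reach a mean of 10 FPKM at 25 or 30 DPA, which limits differences between them on those days. At 30 DPA 142 of 150 fitted values lay below 0, and 110 members had an unadjusted edgeR p under 0.05. With 1 library left out, the calls numbered 10 to 40 at 25 DPA and 5 to 80 at 30 DPA, so the 77 depends on the threshold and on single libraries.

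**Figure D5:**
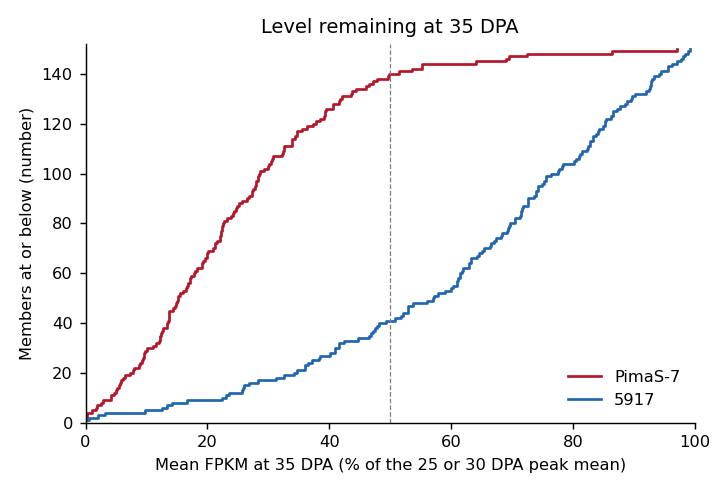
Number of the 150 genes (vertical axis) whose mean FPKM at 35 DPA was at or below a given percentage of their peak mean at 25 or 30 DPA (horizontal axis), in PimaS-7 and 5917. The curve of PimaS-7 lies to the left, with a median of 22.2% against 68.3% in 5917.

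A single member was higher in PimaS-7 at 35 DPA, Gbar_A12G007720. It had 7.70, 15.8 and 14.2 FPKM in PimaS-7, against 0.624, 1.09 and 1.46 FPKM in 5917 (log2 fold change 3.04, SE 0.42, edgeR adjusted p = 0.00634), and the call held without any 1 library. Its 5917 libraries of 30 DPA were unlike each other, with 5.71, 81.5 and 11.01 FPKM. Over the 5 days from 15 to 35 DPA, 145 of the 150 (96.7%) were called between the cultivars at least once, against 32.8% of all genes tested on any of these days. The 5 others were Gbar_D11G035960, Gbar_A11G034850, Gbar_A05G015790, Gbar_A12G028120 and Gbar_D05G013430, named after their values were seen.

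Genes of the pathways named above were also counted in lists of named genes, which hold the genes of the mapped intervals and not whole families. The members TUBB1, WDL2 and MYB86 are in these lists, so their calls are counted again and are not separate evidence. Over all genes tested, 4.4% were lower and 8.21% higher in PimaS-7 at 15 DPA, and 2.58% lower and 6.33% higher at 20 DPA. The shares were 4.02% lower and 2.89% higher at 25 DPA, and 2.47% lower and 5.35% higher at 30 DPA. At 35 DPA they were 9.89% lower and 8.32% higher. Of the 16 microtubule genes, with TUBB1 and WDL2 among them, 4 of 15 tested were lower and 0 higher in PimaS-7 at 15 DPA. At 20 DPA 2 of 15 were higher and 0 lower, and at 35 DPA 6 of 13 were lower and 1 higher. TUBB5, another beta-tubulin, was among the lower ones at 15 DPA (log2 fold change -1.10, SE 0.10, edgeR adjusted p = 0.00033) and at 35 DPA (-3.09, SE 0.43, adjusted p = 0.0061). Its means were 85.5 ± 29.4 FPKM in PimaS-7 and 514 ± 138 FPKM in 5917 at 35 DPA. SP1L2, a SPIRAL1-like protein, of a family that acts on microtubules in Arabidopsis, was lower at 15 DPA too (-2.05, SE 0.19, edgeR adjusted p = 0.00037). At 35 DPA its means were 418 ± 124 FPKM in PimaS-7 and 327 ± 154 FPKM in 5917, and it was not called. Of the microtubule genes, 0 of 14 tested were called between the cultivars at 25 DPA, and at 30 DPA 1 of 13 was higher and 2 lower in PimaS-7. At 30 over 25 DPA in PimaS-7, 4 of 13 were lower and 1 higher, where 7.14% of all genes tested were lower and 11.1% higher.

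Of the 6 regulators of the secondary wall, MYB86 and MYB61 were the lower 2 of 4 tested in PimaS-7 at 15 DPA and the higher 2 of 4 at 20 over 15 DPA in PimaS-7. At 20 over 15 DPA in PimaS-7, 2.94% of all genes tested were higher and 2.7% lower. MYB61 stood at 0.459 ± 0.240 FPKM in PimaS-7 and 1.41 ± 0.24 FPKM in 5917 at 15 DPA (log2 fold change -1.84, SE 0.38, edgeR adjusted p = 0.01). Its means later lay the other way, at 8.49 ± 6.29 and 1.29 ± 0.29 FPKM at 30 DPA. At 35 DPA they were 10.5 ± 8.4 and 1.22 ± 0.29 FPKM. Between the cultivars, 1 of 4 regulators tested was called higher in PimaS-7 at 20 DPA and 1 of 3 at 25 DPA, with 0 lower. At 30 DPA 0 of 3 were called, and at 35 DPA 0 of 3 were higher and 1 lower. KNAT7, a homeobox regulator of the secondary wall in Arabidopsis, was not called in any comparison and had 30.8 ± 1.5 FPKM in PimaS-7 and 34.7 ± 4.3 FPKM in 5917 at 25 DPA. Of the 10 xylan and lignin genes, 4 could be tested at 20 over 15 DPA in PimaS-7. Of these 1 was called higher and 0 lower, and the median log2 fold change was -0.049. The called gene was TBL43, whose relatives in Arabidopsis add acetyl groups to wall polysaccharides. It had 4.59 ± 1.96 FPKM at 20 DPA and 0.0904 ± 0.0896 FPKM at 15 DPA in PimaS-7 (log2 fold change 5.28, SE 0.66, edgeR adjusted p = 0.0036). Between the cultivars, 0 of 4 tested were higher in PimaS-7 and 1 lower at 15 DPA, and 1 and 1 at 20 DPA. At 25 DPA 2 of 4 were higher and 1 lower, at 30 DPA 0 and 1, and at 35 DPA 1 of 5 higher and 2 lower. Of the 5 genes listed under cellulose synthesis, 1 was called higher in PimaS-7 at 15, 30 and 35 DPA each and 0 at 20 and 25 DPA. None was called lower on these days. The list also holds an endoglucanase gene, At1g64390. It had 3.51 ± 0.78 FPKM in PimaS-7 and 1.16 ± 0.60 FPKM in 5917 at 15 DPA, and 2.33 ± 0.31 and 0.266 ± 0.242 FPKM at 30 DPA. SUS2, a sucrose synthase on the same list, had 67.3 ± 3.57 FPKM in PimaS-7 and 11.86 ± 2.82 FPKM in 5917 at 35 DPA. The mean of CSI1, a listed protein that interacts with cellulose synthase, was lower in PimaS-7 on that day. The counts alone do not say which listed gene was called. The means of CESA3 were close, 84.7 FPKM in PimaS-7 and 87.9 FPKM in 5917 at 15 DPA, and 39.2 and 41.9 FPKM at 30 DPA. The counts therefore do not describe cellulose synthesis as a whole. CESA3, a cellulose synthase subunit that serves the primary wall in Arabidopsis, fell in PimaS-7 at 30 over 25 DPA, with 39.2 ± 4.0 FPKM at 30 DPA and 91.3 ± 17.1 FPKM at 25 DPA (log2 fold change -1.59, SE 0.19, edgeR adjusted p = 0.0035). Over these lists, few genes were tested in each, so the counts describe the named genes alone.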

How the data were processed

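RNA-seq was performed on fibers (ovules at 0 DPA) of PimaS-7 and 5917, with 3 libraries per cultivar and day. Per the labels and the methods of the study, the authors used HISAT2 for alignment, with HAU v2.0 of Pima 3-79 as the reference, and StringTie to assemble and quantify transcripts. The counts per gene were deposited by the authors as whole numbers without normalization. Whether StringTie also made these whole-number counts is not given in the sources used here. The FPKM values were deposited by the authors beside them, scaled to gene length and library size.

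Members were chosen on FPKM. Tests were made on the counts with edgeR 4.0.16 in R 4.3.3 (quasi-likelihood F-test after TMM normalization, with low genes removed by filterByExpr at a minimum count of 10), each comparison on its own 6 libraries, or 12 for an interaction, with Benjamini-Hochberg adjustment over all genes tested. A call needed an adjusted p of 0.05 or less and a log2 fold change of at least 1 in size. All 11 comparisons were repeated with DESeq2 1.42.0, with its size factors in edgeR, without the low-count filter, with the replicate number as a block, with limma 3.58.1 on log2(FPKM + 1) for genes above 0.5 FPKM in at least 3 libraries, on all 48 libraries, and with each library left out. Fitting was tested on simulated counts. Genes named in the text are the members that have a name, the 2 highest scores, and for each comparison and direction the 2 called members with the largest change whose groups did not overlap and whose higher group averaged at least 10 FPKM. Of 59 genes in 7 lists, 53 were in the count table. The members, the lists and the tests were chosen with earlier results of these data known. Names were read from the study's gene tables, which were held only in part. Intervals on ratios of counts cover counting error only.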

Additional observations from a re-analysis of the deposited data

Results flagged for a closer look

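The step between 15 and 20 DPA differed between the cultivars by a test of the difference itself for 92 members. Among the named genes the difference, PimaS-7 minus 5917 in log2 units, was 11.31 for MYB86, 2.94 for TUBB1 and 4.004 for WDL2. Among the genes without a name it was 5.50 for Gbar_A07G012370, 7.14 for Gbar_A03G019580, 8.58 for Gbar_D01G005090, 8.46 for Gbar_D03G015340, 6.94 for Gbar_D06G011440 and 5.82 for Gbar_A03G003150. It was 5.70 for Gbar_A10G001660, 6.77 for Gbar_A12G007720, 8.19 for Gbar_A06G001630, 6.41 for Gbar_A01G000170 and 6.57 for Gbar_D05G013430. Over the PimaS-7 libraries of 15 DPA, MYB86 and Gbar_A12G007720 had 3 reads each, Gbar_A01G000170 5, Gbar_D05G013430 10 and Gbar_A07G012370 12, so the fitted size for these 5 genes depends on the prior count. Of the 12 libraries, leaving out each of 9 lost the call of Gbar_A07G012370, each of 8 that of Gbar_A12G007720, each of 4 that of Gbar_A01G000170 and 1 that of Gbar_D05G013430.

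The step between 25 and 30 DPA differed between the cultivars for 19 members by the same kind of test. The difference was -2.38 for MYB86, -2.80 for Gbar_D03G015340, -2.78 for Gbar_A03G003150, -1.67 for Gbar_A10G001660, -2.52 for Gbar_A01G000170 and -2.76 for Gbar_D05G013430. It was 3.59 for Gbar_A06G020540 and 2.66 for Gbar_A11G000520, and -13.86 for Gbar_D05G013820, which was abundant in only 1 or 2 libraries of a group. The call was lost without each of 10 of the 12 libraries for Gbar_A10G001660, 9 for Gbar_D05G013430, 8 for Gbar_A06G020540, 11 for Gbar_A11G000520 and 8 for Gbar_D05G013820, and without 1 for Gbar_D03G015340 and for Gbar_A01G000170.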

How the results depend on the processing

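As each library was left out, the counts were 63 to 69 at 15 DPA, 39 to 80 at 20 DPA, 10 to 40 at 25 DPA, 5 to 80 at 30 DPA and 73 to 141 at 35 DPA between the cultivars. They were 59 to 98 in PimaS-7 and 3 to 14 in 5917 for 20 over 15 DPA, 36 to 62 in PimaS-7 and 0 to 1 in 5917 for 30 over 25 DPA, and 79 to 102 and 3 to 52 for the differences in these steps. DESeq2 called 52 at 25 DPA, 73 at 30 DPA, 26 for 20 over 15 DPA in 5917, 3 for 30 over 25 DPA in 5917 and 36 for the difference in the later step. Limma on log2(FPKM + 1) called 14 at 30 DPA, 1 for 30 over 25 DPA in 5917 and 36 for the difference in that step. The fit of all 48 libraries called 1 member for 20 over 15 DPA and 4 for 30 over 25 DPA in 5917, and without the low-count filter 1 was called for 30 over 25 DPA in 5917. Other counts stayed within 1.5 times those reported, and the cause of these moves was not tested. The leading direction of the counts changed for 30 over 25 DPA in PimaS-7 and for the difference in that step, and for no other comparison. On the scale of log2(FPKM + 1) limma called 35 higher and 20 lower for 30 over 25 DPA in PimaS-7 and 25 higher and 11 lower for the difference, where edgeR called 24 higher and 34 lower, and 8 higher and 11 lower. When PimaS-7 25 DPA replicate 2 was left out, edgeR called 33 higher and 29 lower in PimaS-7 and 5 higher and 4 lower for the difference, which was 6 and 5 without 5917 25 DPA replicate 1 and 4 and 4 without 5917 25 DPA replicate 3. The median of that difference was 0.17 by limma and -0.45 by edgeR, and the median of 30 over 25 DPA in 5917 was 0.13, against -0.03 by limma and -0.03 to 0.56 with 1 library left out. No call of a named gene changed direction. Of 102 results for named genes, 42 lost their call without at least 1 library.

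Equal replicate numbers did not pair the libraries: the correlations of their deviations ran from -0.418 to 0.229, and in no comparison were all 3 above 0.1. With the replicate block, 42 members were called at 20 DPA and 2 for 20 over 15 DPA in 5917, and 18 of 102 results for named genes lost their call. Libraries of each number were closest to their own number only at 35 DPA.

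The choice of members moved with its settings. Of the 150, 131 were kept with a pseudocount of 0.1, 115 with 10, 147 with a minimum peak mean of 1 FPKM, 144 without the ovules, and 135, 135 and 138 without replicate 1, 2 and 3.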

Other observations

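Some members were abundant in single libraries of a group. Gbar_D05G013820 had 5.61, 1322 and 1210 FPKM at 25 DPA in PimaS-7, and 2066, 9.91 and 14.3 FPKM at 30 DPA and 7.06, 1412 and 5.89 FPKM at 35 DPA in 5917. The highest library was 235.6, 208.5 and 239.7 times the lowest in these 3 groups, and the calls for this gene rested on those libraries. Among members with a group mean of at least 10 FPKM, 4 differed by 10 times or more between the 5917 libraries of 30 DPA, and 2 did between the PimaS-7 libraries of 25 DPA.

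The 5917 libraries of 30 DPA ordered a few genes alike. Replicate 2 had 92.1 FPKM of GLP10 and 81.5 FPKM of Gbar_A12G007720, where replicates 1 and 3 had 16.5 and 18.3 FPKM of GLP10 and 5.71 and 11.01 FPKM of Gbar_A12G007720. Gbar_A11G034850 had 5.24, 77.5 and 8.08 FPKM and Gbar_D11G035960 had 6.07, 65.7 and 6.58 FPKM in replicates 1, 2 and 3, and these 2 genes were chosen after their values were seen. What set replicate 2 apart in these 4 genes was not tested.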
